A study of Homo sapiens
Mus musculus and Mus musculus and Homo sapiens with 3 samples.

Results

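The nuclear factor I transcription factors NFIA, NFIB, NFIC and NFIX, the transcription factor ZBTB20 and the secreted ligand TGFB2 were followed through human and mouse motor neuron differentiation in a dish. These 6 genes were taken by name (title case in mouse), out of 15472 gene symbols present in all the libraries. All 6 had UMIs (unique molecular identifiers, each counting 1 captured RNA molecule) in every library, and all 6 passed the filter on low counts, which 12726 symbols passed. The study set progenitors of human and mouse motor neurons, and the neurons made from them, side by side. The labels call the human lines NCRM1 and RUES1 iPS, a term for reprogrammed pluripotent cells, and the origin of each line was not checked. These lines and mouse ES cells of strain C57BL/6 were all given a lentivirus with a barcode behind GFP under the CAGGS promoter. They were then grown as embryoid bodies towards motor neurons, dissociated with papain and DNase I, and sorted for GFP before 3′ single-cell sequencing on the 10x platform.

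There were 3 samples and 4 library parts, 2 per species. Human replicate 1 (NCRM1) and mouse replicate 1 were the species parts of 1 mixed library. Human replicate 2 (RUES1) and mouse replicate 2 each came from a separate library. Mouse cells had been sampled every 24 h and human cells every 48 h, but no cell carried its day. A difference between libraries in a gene's level and a difference in their mix of days therefore cannot be told apart. The human replicates were different lines, so that line and replicate cannot be told apart either, and the labels do not say that the mouse libraries were separate cultures.

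In the developing spinal cord, NFI factors bind DNA as dimers, switch on in ventricular zone progenitors around the end of the main wave of neurogenesis, and are known for their part in the onset of glia production. They also mark neurons that are born late within a class. ZBTB20 is a zinc finger repressor known from late-born neurons and astrocytes. TGFB2 binds the TGFBR2 and TGFBR1 receptor pair, with TGFBR3 as a co-receptor, signals through SMAD2, SMAD3 and SMAD4, and is restrained by SMAD7, SKI and SKIL. It is known as a timing signal in ventral hindbrain and spinal progenitors.

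The NFI genes are paralogs, and reads that fit several of them would be uncertain. Sequence shared between them was therefore searched in the GENCODE transcripts of mouse (build mm10), with 1 protein-coding transcript per gene. The longest exact run shared by any pair was 32 bases, between the coding sequences of Nfic and Nfix. It is shown here, with a run of 21 bases shared by the coding sequences of Nfib and Nfix, because these were the only pairs whose longest run was in coding sequence. The letters are in lower case throughout since the whole run is shared.
Nfic and Nfix: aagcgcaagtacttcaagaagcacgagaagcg
Nfib and Nfix: atcaagcagaagtgggcatcc
The first run ended 6012 bases from the 3′ end of the Nfic transcript and 5320 bases from that of Nfix. The runs shared by the other pairs had 18 to 21 bases and were low-complexity stretches outside the coding sequence or across its edge. The Nfia and Nfic run ended 47 bases from the Nfic 3′ end. Human transcripts were not analysed here.

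Cells were gated on transcripts that are not among the 6 genes. The gate read a random draw of 7000 UMIs from each cell. Progenitors had at least 1 UMI of SOX2, a neural progenitor factor, and fewer than 3 of STMN2, a neuronal microtubule regulator. They were split by UMIs of OLIG2, which marks motor neuron progenitors, and NKX2-2, which marks the progenitors ventral to them. OLIG2-only progenitors numbered 711 and 500 cells in human replicates 1 and 2 and 381 and 262 in mouse replicates 1 and 2. Progenitors with both OLIG2 and NKX2-2 UMIs were few, with 25, 50, 19 and 23 cells in the same order. Progenitors with neither (OLIG2-free) numbered 380, 291, 517 and 759. NKX2-2-only progenitors numbered 2, 33, 42 and 17, so human replicate 1 carries no information there. Neurons, with at least 3 STMN2 UMIs and no SOX2 UMI, numbered 289, 317, 179 and 451.

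The gates were checked against markers. The summed level of 7 neuron markers was 1791 to 7225 CPM (a gene's UMI counts, scaled to all UMIs of the summed cells) in the neuron class and 105 to 338 CPM in OLIG2-only progenitors, with TUBB3 at 0 in human replicate 1. The 7 progenitor markers summed to 1416 to 6295 CPM in OLIG2-only progenitors and 693 to 1936 CPM in neurons. Of 5 markers of mature glia, GFAP was at 0 UMIs in OLIG2-only progenitors of every library except human replicate 2, and the 5 summed to 3.51 to 8.01 CPM there. Median depth in OLIG2-only progenitors was 12429, 20320.5, 19424 and 27392.5 UMIs per cell. The deepest library was mouse replicate 2, which also had the highest NFIA and NFIB levels in OLIG2-only progenitors, so shares of cells are given at 7000 UMIs, a fixed depth.

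NFIB was the member with the clearest species difference in OLIG2-only progenitors. The human gene lies on chromosome 9 (14081843 to 14532077, hg38) and the mouse gene on chromosome 4 (82290173 to 82705750, minus strand, mm10). Its summed level in OLIG2-only progenitors was 1.34 CPM (13 UMIs) in human replicate 1 and 1.82 CPM (20 UMIs) in human replicate 2. It was 9.05 CPM (71 UMIs) in mouse replicate 1 and 31.1 CPM (229 UMIs) in mouse replicate 2. Both mouse libraries were above both human libraries, and the mouse libraries differed from each other more than the human ones did. The mean was 1.58 ± 0.334 CPM in human and 20.1 ± 15.6 CPM in mouse (SD, n = 2 library parts each). The human level was lower by a log2 fold change of -3.81 ± 1.09 (SE), with an adjusted p of 0.0165 by edgeR's quasi-likelihood test with Benjamini-Hochberg adjustment. NFIB was the only 1 of the 6 members called there, against 28.8% of all symbols tested (15.2% higher and 13.6% lower in human), so that the members' share was not above the background. The call was lost without mouse replicate 2, at -2.48 and an adjusted p of 0.233 by the same edgeR test.

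Counted as cells rather than molecules, the same ordering appeared. NFIB was seen in 6 of 711 human replicate 1 cells (0.844%, exact 95% Clopper-Pearson interval 0.31 to 1.83%) and in 6 of 500 human replicate 2 cells (1.20%, 0.442 to 2.59%). It was seen in 28 of 381 mouse replicate 1 cells (7.35%, 4.94 to 10.4%) and in 52 of 262 mouse replicate 2 cells (19.8%, 15.2 to 25.2%). Without thinning the shares were 1.83%, 3.60%, 15.0% and 39.3%. The exact two-sided permutation test of 2 human against 2 mouse shares gave p = 0.333, the smallest this design can give. All intervals here and below cover counting error only. Droplets can also hold free RNA, and no class in these data is known to lack NFIB. Its share in neurons of the same libraries was 0.346%, 4.42%, 2.23% and 2.44% at the same thinned depth (median full depth 9935, 16985, 14046 and 22961 UMIs per cell). The mouse OLIG2-only shares were above the neuron shares of their own libraries. The human OLIG2-only share was above the neuron share of its own library in replicate 1 and below it in replicate 2. Both human shares were within the range of the neuron shares over all libraries, and no expression is read from them.

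**Figure D1:**
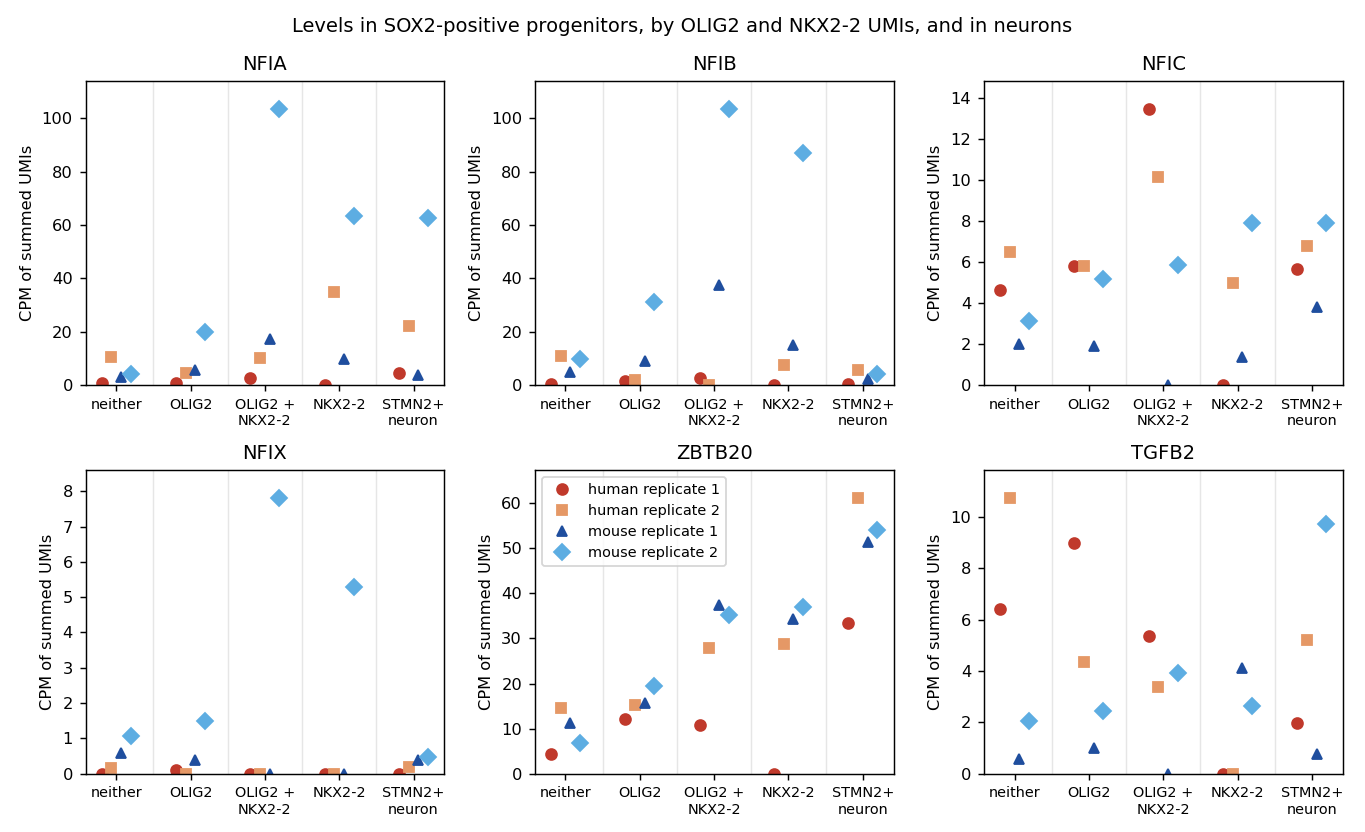
Levels of the 6 genes in CPM of summed UMIs (y axis, each panel on its own scale) in 4 classes of SOX2-positive progenitors and in STMN2-positive neurons (x axis), with 1 point per library part. NFIB and NFIA reach 103 CPM in mouse replicate 2 progenitors with OLIG2 and NKX2-2 UMIs, while ZBTB20 is at 33.5 to 61.2 CPM in the neurons of all 4 library parts.

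In progenitors with both OLIG2 and NKX2-2 UMIs the NFIB gap was wider. NFIB had 1 UMI in human replicate 1 (2.69 CPM) and none in human replicate 2, where 0 of 50 cells allows a share of cells with an NFIB UMI of up to 6%, which does not limit the share of cells expressing the gene. It had 15 UMIs in mouse replicate 1 (37.4 CPM, exact 95% Poisson interval 20.9 to 61.7) and 53 in mouse replicate 2 (103 CPM, 77.5 to 135). Over both libraries the mouse level was 116 times the human level, with a 95% counting interval of 20.1 to 4637, since it rests on 1 human UMI. At 7000 UMIs per cell, NFIB was seen in 1 of 25, 0 of 50, 7 of 19 and 13 of 23 cells. NFIB was called lower in human (adjusted p = 0.0210, edgeR), the only member called, where 11.6% of all symbols were called (4.81% higher and 6.78% lower in human). The call was lost without human replicate 2 (adjusted p = 0.156), without mouse replicate 1 (0.068) and without mouse replicate 2 (0.180), all by edgeR.

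In OLIG2-free progenitors the NFIB levels of the species overlapped. NFIB was at 0.356 CPM in human replicate 1, 10.9 CPM in human replicate 2, 4.71 CPM in mouse replicate 1 and 9.69 CPM in mouse replicate 2. The species difference there did not pass the test (log2 fold change -0.73 ± 0.98, adjusted p = 0.604, edgeR). Cells with markers of other tissues moved with this class. Mesenchyme or crest markers summed to 32.2 and 789 CPM in human replicates 1 and 2 and to 8.66 and 18.5 CPM in mouse replicates 1 and 2. All 8 of these markers had UMIs in human replicate 2, while PRRX1, FOXD3 and SOX10 were at 0 in human replicate 1. With cells holding at least 3 UMIs of mesenchyme, crest or epithelium markers left out, NFIB in human replicate 2 was at 2.13 CPM and in mouse replicate 2 at 11.5 CPM. The species difference then passed the test, at -2.93 with an adjusted p of 0.0365 (edgeR). Among cells outside all gates, NFIB was at 13.6 and 31.8 CPM in human cells with such markers. In ungated human cells without them it was at 0.776 CPM (3 UMIs) and 0 CPM. In NKX2-2-only progenitors, of which human replicate 1 had 2 cells, NFIB was at 0, 7.49, 15.1 and 87.1 CPM, and the species did not overlap. Their difference in that class was not tested.

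NFIA, on human chromosome 1 (61077227 to 61462788, hg38) and on mouse chromosome 4 (97772734 to 98118874, plus strand, mm10), leaned the same way as NFIB in OLIG2-only progenitors but did not pass the test. It was at 0.930 CPM (9 UMIs) and 4.54 CPM (50 UMIs) in human replicates 1 and 2, and at 5.74 CPM (45 UMIs) and 19.8 CPM (146 UMIs) in mouse replicates 1 and 2. The groups did not overlap, but human replicate 2 and mouse replicate 1 had overlapping counting intervals (3.37 to 5.98 and 4.18 to 7.68 CPM). The mean was 2.74 ± 2.55 CPM in human and 12.8 ± 9.96 CPM in mouse (SD, n = 2 each). The log2 fold change was -2.43 ± 1.19 with an adjusted p of 0.136 (edgeR). The replicate number as a block brought the adjusted p to 0.00263 (edgeR), and no other alternative brought it below the threshold. NFIA was seen in 0.141%, 2.40%, 3.67% and 14.1% of OLIG2-only cells at 7000 UMIs, and in 1.27%, 6.80%, 9.19% and 25.2% without thinning. In NKX2-2-only progenitors, of which human replicate 1 had 2 cells, the NFIA levels of the species overlapped. Means there were 17.5 ± 24.7 CPM in human and 36.5 ± 38.0 CPM in mouse (SD, n = 2 each). Pooled over libraries, NFIA was at 33.4 CPM (28 UMIs) in human and 28.0 CPM (31 UMIs) in mouse. That class was not tested between species.

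NFIA in progenitors with both UMIs was at 2.69 CPM (1 UMI), 10.1 CPM (12 UMIs), 17.4 CPM (7 UMIs) and 103 CPM (53 UMIs) in the human libraries and then the mouse libraries. All 4 values were above the OLIG2-only values of the same library, by ratios of 2.89, 2.23, 3.04 and 5.22. Neither within-species change passed the test. In mouse, the log2 fold change was 1.92 ± 0.49 for NFIA (adjusted p = 0.124, edgeR) and 1.64 ± 0.45 for NFIB (adjusted p = 0.194, edgeR). None of the 6 members was called in either species by edgeR or DESeq2, where edgeR called 0.251% of symbols in mouse (0.212% higher and 0.0393% lower) and 0.00786% in human (all higher). At an unadjusted p under 0.05, edgeR had 3 members in mouse (NFIA, NFIB and ZBTB20) and 0 in human, where 7.86% and 3.55% of all symbols had one. Without mouse replicate 1, NFIA passed (2.15, adjusted p = 4.6e-05, edgeR), and with no filter on low counts both NFIA (0.00219) and NFIB (0.00934) passed. For NFIB, the human change minus the mouse change had an unadjusted p of 0.0246 and an adjusted p of 1 (edgeR). No member was called in that difference by edgeR or DESeq2, where edgeR called 0.00786% of symbols, and NFIB was the only member with an unadjusted p under 0.05 (3.83% of all symbols had one).

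OLIG2-free progenitors gave the reverse ordering in mouse. NFIA there was at 3.11 and 4.0 CPM in mouse replicates 1 and 2, which is 0.542 and 0.202 times the OLIG2-only level of the same library. The human values were 0.712 and 10.6 CPM, or 0.765 and 2.33 times the OLIG2-only level, so the human libraries pointed opposite ways. Pooled over both human libraries, NFIA in OLIG2-free progenitors was at 5.86 CPM (69 UMIs). Without cells with markers of other tissues it was at 3.01 CPM (18 UMIs). The pooled human OLIG2-only level was 2.85 CPM, and 2.07 CPM without such cells. No member was called between OLIG2-free and OLIG2-only progenitors in either species by edgeR or DESeq2, where edgeR called 0.919% of symbols in mouse (0.44% higher and 0.479% lower) and 1.96% in human (1.49% higher and 0.464% lower). At an unadjusted p under 0.05, edgeR had NFIA, NFIB and ZBTB20 in mouse and NFIB and ZBTB20 in human, where 7.64% and 7.69% of all symbols had one. In mouse the log2 fold changes were -1.71 ± 0.44 for NFIA (adjusted p = 0.0601) and -1.35 ± 0.39 for NFIB (adjusted p = 0.110, both edgeR). Several alternatives brought these past the threshold, among them leaving out mouse replicate 1 (adjusted p = 2.1e-07 for NFIA and 0.00356 for NFIB, edgeR). In each mouse library, the values of both genes ran from low in OLIG2-free through OLIG2-only to high in doubly positive progenitors.

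NFIA and NFIB were found in the same mouse progenitors more often than their separate rates would place them. The classes differ in these rates, so a count over all of them also holds that difference. Within the 262 OLIG2-only progenitors of mouse replicate 2 at 7000 UMIs, 18 had both, where independent rates would give 7.34. In the 381 of mouse replicate 1, 3 had both, where 1.03 would follow. Among all 1061 SOX2-positive progenitors of mouse replicate 2 at 7000 UMIs, 80 had NFIA, 130 had NFIB and 41 had both, where independent rates would give 9.80. NFIB was seen in 51.3% of the cells with NFIA and in 9.07% of those without. In mouse replicate 1, 8 of 959 progenitors had both, where independent rates would give 1.91. Human replicate 2 had 3 of 874 (1.17 from the rates) and human replicate 1 had 0 of 1118 (0.0358). In the neurons of mouse replicate 2, where 113 of 451 cells had NFIA, 3 cells had both, close to the 2.76 from the rates. In human replicate 2 neurons 7 cells had both, where 1.28 would follow. These are counts of cells within libraries and carry no test.

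**Figure D2:**
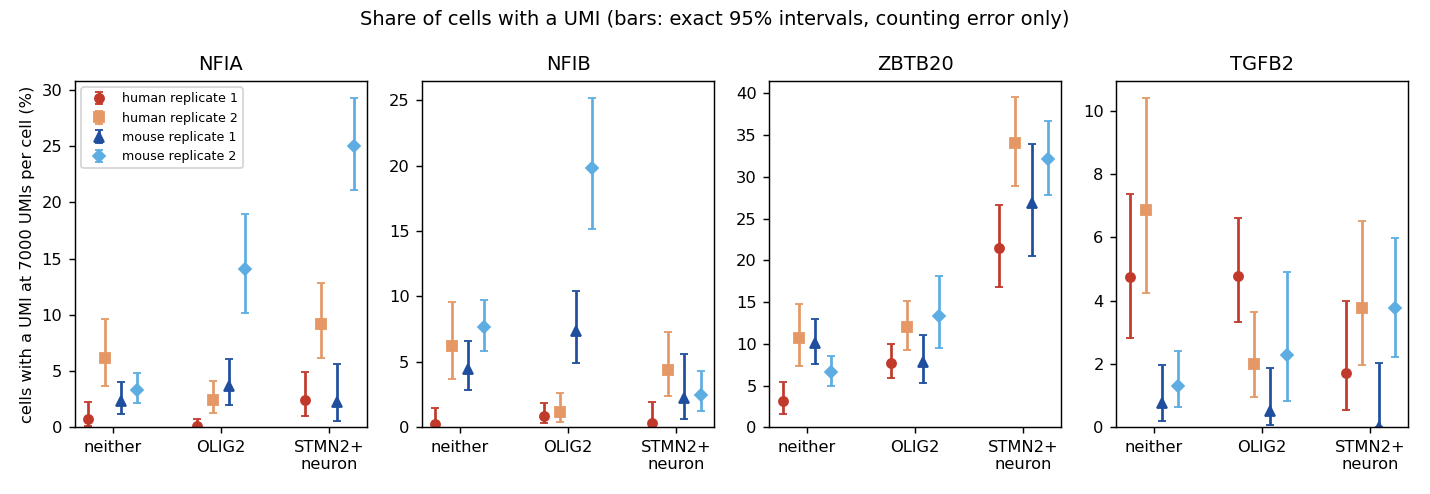
Share of cells with at least 1 UMI of NFIA, NFIB, ZBTB20 or TGFB2 after thinning to 7000 UMIs per cell (y axis, percent, each panel on its own scale) in OLIG2-free progenitors (neither), OLIG2-only progenitors and neurons (x axis). Points are library parts and bars are exact 95% intervals. NFIB is in 7.35% and 19.8% of mouse OLIG2-only cells and in 0.844% and 1.20% of human ones, and ZBTB20 is in 21.5 to 34.1% of neurons.

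NFIX was close to absent in human. The gene lies on human chromosome 19 (12995475 to 13098796, hg38) and mouse chromosome 8 (84699876 to 84800344, minus strand, mm10). Over all cells used it had 2 UMIs in each human library, 21 in mouse replicate 1 and 227 in mouse replicate 2. Of the last, 147 UMIs were in 414 ungated cells with markers of other tissues (9.59 CPM), against 1.42 CPM in the ungated cells without them. In OLIG2-only progenitors there were 1, 0, 3 and 11 UMIs. Pooled over libraries, the mouse level there was 19.0 times the human level, with a 95% counting interval of 2.90 to 805. The edgeR test gave an adjusted p of 0.0565, and the fitted fold change is not given because it rests on 1 human UMI. That p was 0.0449 with gates on unthinned counts, 0.0482 without the NKX2-2-only class and 0.0209 with the replicate number as a block (edgeR). In doubly positive progenitors, NFIX had 4 UMIs in mouse replicate 2 and none elsewhere.

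NFIC, the family member on human chromosome 19 (3359630 to 3469217, hg38) and mouse chromosome 10 (81396186 to 81455635, minus strand, mm10), had low levels. Its OLIG2-only values were 5.79 and 5.81 CPM (human) and 1.91 and 5.16 CPM (mouse), in the order of the replicates. Its neuron levels were 5.64 and 6.80 CPM (human) and 3.81 and 7.89 CPM (mouse). None of the 12 comparisons called NFIC by edgeR with all libraries. Gates on unthinned counts gave a rise in mouse neurons (1.20, adjusted p = 0.00723, edgeR). The largest shift between species was in doubly positive progenitors, with 13.5 and 10.1 CPM in human against 0 and 5.86 CPM in mouse on 20 UMIs in all (adjusted p = 0.271, edgeR). NFIC was therefore the only NFI gene whose human mean was above its mouse mean in OLIG2-only progenitors (5.80 ± 0.0153 against 3.54 ± 2.30 CPM, SD, n = 2 each), a difference that did not pass the test (log2 fold change 0.56 ± 0.62, adjusted p = 0.532, edgeR).

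ZBTB20, on human chromosome 3 (114314500 to 115147288, hg38) and mouse chromosome 16 (42875881 to 43642602, plus strand, mm10), rose from OLIG2-only progenitors to neurons in both species. Its OLIG2-only levels were 12.1 and 15.3 CPM (human replicates 1 and 2) and 15.7 and 19.5 CPM (mouse replicates 1 and 2). In neurons it was at 33.5, 61.2, 51.5 and 54.1 CPM in the same order. Every library thus had 2.77 to 3.99 times as much ZBTB20 (in CPM) in neurons as in OLIG2-only progenitors. The rise was 1.59 ± 0.26 in human (adjusted p = 1.4e-05) and 1.32 ± 0.25 in mouse (adjusted p = 9.1e-05) on the log2 scale, both by edgeR. The difference between these changes was 0.27 ± 0.36 with an adjusted p of 0.697 (edgeR), which does not show that they were equal. The call was lost in human with only the groups compared in the fit (adjusted p = 0.0563) and in mouse without the block on library (0.0746), both by edgeR.

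Human and mouse ZBTB20 did not differ past the threshold in any class tested, which does not show that they were alike. Both mouse libraries were above both human libraries in OLIG2-only progenitors (means of 17.6 ± 2.73 and 13.7 ± 2.30 CPM, SD, n = 2 each) and in doubly positive progenitors (36.3 ± 1.59 and 19.3 ± 12.1 CPM). Without cells with markers of other tissues, the species overlapped in OLIG2-only progenitors (means of 18.1 ± 3.45 CPM in mouse and 15.9 ± 4.07 CPM in human). The levels overlapped in OLIG2-free progenitors and in neurons. The log2 fold change, human over mouse, was -0.56 ± 0.48 in OLIG2-only progenitors (adjusted p = 0.401), -0.98 ± 0.57 in doubly positive progenitors (0.303), -0.29 ± 0.49 in OLIG2-free progenitors (0.874) and -0.24 ± 0.47 in neurons (0.751, all edgeR). At 7000 UMIs ZBTB20 was seen in 7.74%, 12%, 7.87% and 13.4% of OLIG2-only cells and in 21.5%, 34.1%, 26.8% and 32.2% of neurons. Without thinning the neuron shares were 27.3%, 59.6%, 49.7% and 59.0%. OLIG2-free progenitors had the lowest ZBTB20 level of the progenitor classes in all but human replicate 1, whose 2 NKX2-2-only cells had no UMI, with 4.27, 14.6, 11.4 and 6.77 CPM. In human replicate 2 and mouse replicate 1 its interval overlapped that of OLIG2-only progenitors.

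Against OLIG2-only progenitors, NFIA was called higher in human neurons and NFIB lower in mouse neurons. NFIA was at 4.65 CPM (14 UMIs) and 22.2 CPM (124 UMIs) in human neurons of replicates 1 and 2, which is 4.99 and 4.89 times the OLIG2-only level. The human rise was 2.18 ± 0.50 on the log2 scale (adjusted p = 9.1e-04, edgeR). In mouse, NFIA was at 3.81 CPM (10 UMIs) in replicate 1, below its OLIG2-only level of 5.74 CPM, and at 62.6 CPM (658 UMIs) in replicate 2, above its OLIG2-only level of 19.8 CPM. The mouse change was 0.90 ± 0.40 and missed the threshold (adjusted p = 0.0650, edgeR). It passed under 5 alternatives, and without mouse replicate 1 it was 1.49 (adjusted p = 2.2e-05, edgeR). The human call was lost without human replicate 2 (adjusted p = 0.160), without the block on library (0.282) and with only the groups compared in the fit (0.230), all by edgeR. The human and mouse changes of NFIA were not shown to differ (1.28 ± 0.64, adjusted p = 0.194, edgeR). Without mouse replicate 2 that difference was 3.01 with an adjusted p of 0.001 (edgeR).

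NFIB fell in mouse neurons. It was at 2.29 CPM (6 UMIs) and 4.28 CPM (45 UMIs) in the neurons of mouse replicates 1 and 2, which is 0.253 and 0.138 times the OLIG2-only level. The change was -2.88 ± 0.49 on the log2 scale (adjusted p = 1.8e-05, edgeR), and without the block on library the adjusted p was 0.0828. In human the libraries pointed opposite ways, with 0.332 CPM (1 UMI) in replicate 1 and 5.54 CPM (31 UMIs) in replicate 2. The human change of 0.63 ± 0.63 did not pass (adjusted p = 0.453, edgeR). The human change minus the mouse change was 3.52 ± 0.81 with an adjusted p of 0.00357 (edgeR). That difference rested on human replicate 2, without which it was 0.68. With only the groups compared in the fit, no symbol was called in that difference.

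Read against the background, these calls are not many. In human, 2 of 6 members were called higher in neurons and 0 lower, where 18.1% of all symbols were higher and 23.0% lower. In mouse, 1 was higher and 1 lower, where 22.9% were higher and 24.7% lower. The test of the difference between species called 1 of 6, where 14.3% of symbols were called (5.81% higher and 8.45% lower). Between species in neurons, none of the 6 was called by edgeR (25.5% of symbols were, 12% higher and 13.5% lower in human) or by DESeq2, and none had an unadjusted p under 0.05 by edgeR.

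**Figure D3:**
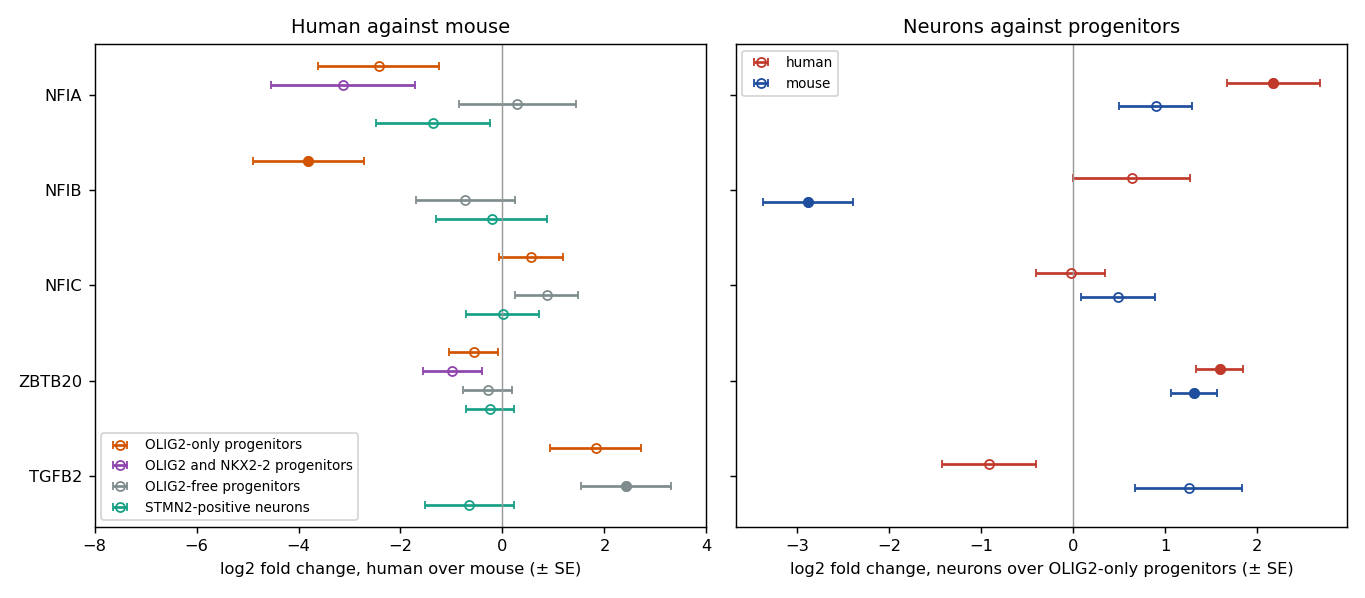
Log2 fold changes with SE (x axis) of 5 genes, human over mouse in 4 cell classes (left) and neurons over OLIG2-only progenitors in each species (right). Filled points passed the test at an adjusted p of 0.05. NFIX, and any gene in a class where a species has 3 or fewer UMIs over its libraries (NFIB, NFIC and TGFB2 in doubly positive progenitors), are left out. NFIB stands at -3.81 in OLIG2-only progenitors, ZBTB20 has positive values in the neurons of both species, and TGFB2 stands at 2.42 in OLIG2-free progenitors.

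Within neurons, NFIA had its higher level in cells with a motor neuron factor. Neurons were split into cells with and without a UMI of MNX1, ISL1, ISL2 or SLC18A3, which are transcription factors and a transporter of motor neurons. With such a UMI, NFIA was at 5.37 CPM (13 UMIs) and 25.0 CPM (124 UMIs) in human replicates 1 and 2 and at 5.62 CPM (9 UMIs) and 78.3 CPM (615 UMIs) in mouse replicates 1 and 2. Without one, it was at 1.69 CPM (1 UMI), 0 CPM, 0.980 CPM (1 UMI) and 16.2 CPM (43 UMIs). All 4 libraries had the higher level in the cells with a factor UMI. The intervals were apart in human replicate 2 (20.8 to 29.8 against 0 to 5.90 CPM) and mouse replicate 2 (72.3 to 84.8 against 11.7 to 21.8 CPM). They overlapped in both parts of the mixed library. Median depth differed between these cells by up to 25496 against 17468 UMIs in mouse replicate 2, and cells with markers of other tissues made up 2.63% of the former and 28.6% of the latter there. Their part in the result was not tested.

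ZBTB20 did not share that split. It was at 34.7, 63.6, 55.6 and 51.5 CPM in neurons with a motor neuron factor UMI and at 28.7, 41.6, 45.1 and 62.0 CPM in those without, higher with a factor in 3 libraries and lower in mouse replicate 2. All 4 pairs of intervals overlapped. NFIB was at 0, 6.24, 1.87 and 4.97 CPM with a factor UMI and at 1.69, 0, 2.94 and 2.25 CPM without, on 39 UMIs or fewer in each group of a library. TGFB2 in mouse replicate 2 was at 10.3 CPM with and 7.89 CPM without, and its intervals overlapped in each library.

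**Figure D4:**
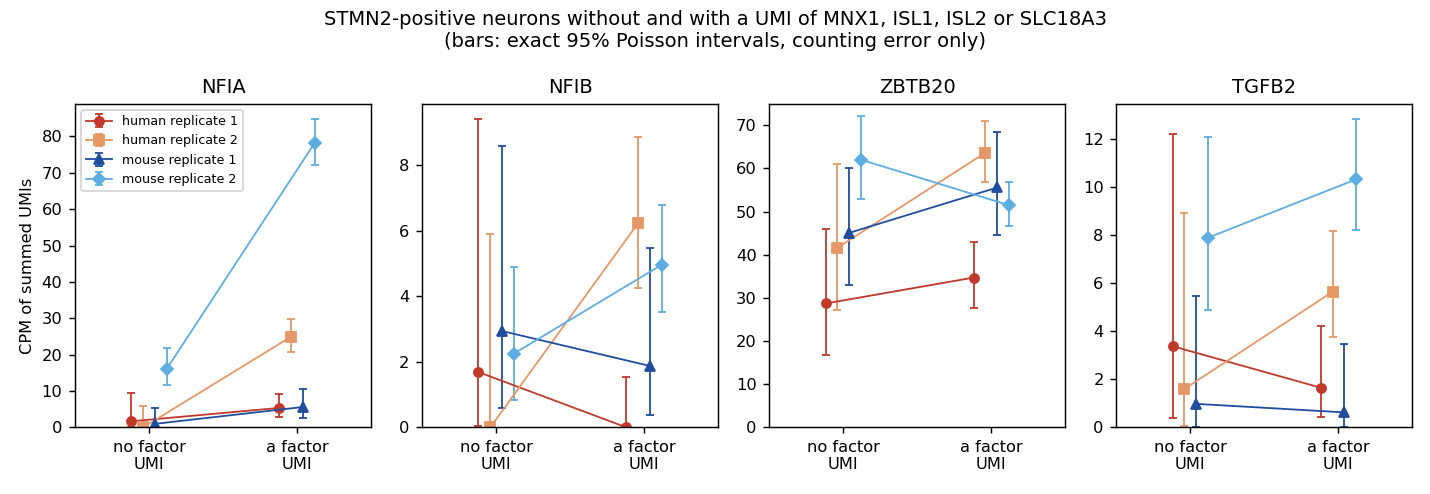
CPM of summed UMIs (y axis, each panel on its own scale) of NFIA, NFIB, ZBTB20 and TGFB2 in STMN2-positive neurons without and with a UMI of a motor neuron factor (x axis). Lines join the groups of 1 library part, and bars are exact 95% Poisson intervals. NFIA is higher with a factor on all 4 lines, 78.3 against 16.2 CPM in mouse replicate 2, and ZBTB20 has overlapping bars in each library part.

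TGFB2, the ligand among the 6, had the opposite species ordering to NFIB in OLIG2-only progenitors. It lies on human chromosome 1 (218345336 to 218444619, hg38) and mouse chromosome 1 (186622792 to 186705989, minus strand, mm10). The OLIG2-free level was 6.41 CPM (36 UMIs) and 10.7 CPM (66 UMIs) in human replicates 1 and 2, and at 0.589 CPM (7 UMIs) and 2.05 CPM (57 UMIs) in mouse replicates 1 and 2. The human libraries were both above the mouse libraries, with means of 8.57 ± 3.06 and 1.32 ± 1.04 CPM (SD, n = 2 each). TGFB2 was called higher in human there (log2 fold change 2.42 ± 0.88, adjusted p = 0.0485, edgeR), the only 1 of the 6, where 31% of symbols were called (16.6% higher and 14.5% lower in human). The call was close to the threshold. It was lost without human replicate 1 (adjusted p = 0.104), human replicate 2 (0.128) or mouse replicate 1 (0.124), and under 3 other alternatives (0.0610 to 0.0898, all edgeR). With the cells of other tissue markers left out, TGFB2 in these progenitors was at 8.52, 10.2, 0.619 and 1.25 CPM. The log2 fold change was then 3.07 with an adjusted p of 0.0142 (edgeR).

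The OLIG2-only level of TGFB2 was 8.99 CPM (87 UMIs) and 4.36 CPM (48 UMIs) in human and 1.02 CPM (8 UMIs) and 2.44 CPM (18 UMIs) in mouse. The groups did not overlap, and the difference of 1.82 ± 0.89 did not pass (adjusted p = 0.136, edgeR). In neurons they overlapped, with 1.99 and 5.19 CPM in human replicates 1 and 2 and 0.763 and 9.70 CPM in mouse replicates 1 and 2. From OLIG2-only progenitors to neurons, TGFB2 had a ratio of 0.221 in human replicate 1 and 1.19 in human replicate 2, 0.748 in mouse replicate 1 and 3.97 in mouse replicate 2. Neither change passed (-0.92 ± 0.51, adjusted p = 0.157, in human and 1.25 ± 0.58, adjusted p = 0.0763, in mouse, edgeR), nor did their difference (-2.17 ± 0.77, adjusted p = 0.0592, edgeR). Without mouse replicate 1 the mouse change was 1.81 (adjusted p = 0.00455) and the difference -2.69 (adjusted p = 0.00259, both edgeR), and further alternatives also brought them past the threshold. Ungated mouse replicate 2 cells with markers of other tissues had TGFB2 at 13.5 CPM and those without at 2.39 CPM.

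Around TGFB2, 16 of 18 further genes of its pathway were tested. In OLIG2-only progenitors, 2 were higher in human, 1 was lower and 13 did not pass, with a median log2 fold change of 0.44 against -0.01 over all symbols. The ligand TGFB1 was higher in human (4.40 ± 1.13, adjusted p = 0.00998), as was the activin-type receptor ACVR1B (2.08 ± 0.57, adjusted p = 0.0136). The inhibitor SMAD7 was lower in human (-2.28 ± 0.60, adjusted p = 0.0108, all edgeR). Over all symbols, 15.2% were higher and 13.6% lower there. In OLIG2-free progenitors, 4 were higher and 2 lower in human, where 16.6% and 14.5% of all symbols were. TGFB1, the matrix protein gene TGFBI (3.76 ± 0.85) and the latent ligand binding protein LTBP3 (3.74 ± 0.69) had the largest positive changes, and SMAD7 was lower (-2.63 ± 0.62). Cells with markers of other tissues made up 30.3% and 62.9% of this class in human replicates 1 and 2, and 4.84% and 29.0% in mouse replicates 1 and 2. Without them, 4 were higher and 1 lower (15.6% and 14% of all symbols), TGFBI did not pass (1.94 ± 1.16, adjusted p = 0.228, edgeR), and TGFB1, LTBP3 and SMAD7 did. Between neurons and OLIG2-only progenitors, 2 pathway genes were higher and 7 lower in human, and 2 higher and 5 lower in mouse. Over all symbols, human had 18.1% higher and 23% lower, and mouse had 22.9% and 24.7%. In human, the co-receptor TGFBR3 (-3.74 ± 0.72), the latent ligand binding protein LTBP1 (-3.41 ± 0.40) and TGFBI (-2.72 ± 0.70) fell in neurons. In mouse, the SMAD co-repressor TGIF1 (-3.14 ± 0.29), the effector SMAD3 (-2.99 ± 0.31) and LTBP1 (-2.50 ± 0.41) fell and ACVR1B rose (1.86 ± 0.36). The receptor gene TGFBR2 was called lower in human neurons (adjusted p = 0.00832, edgeR), where neither library had a UMI of it and OLIG2-only progenitors had 4 and 23. None of the 16 changes was called different between species by edgeR or DESeq2, where edgeR called 14.3% of all symbols. At an unadjusted p under 0.05, edgeR had 3 of the 16, where 27.2% of all symbols had one.

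Genes of gliogenesis and late progenitors were tested for 13 of a list of 16. In mouse doubly positive against OLIG2-only progenitors, the former being the class in which mouse NFIA and NFIB were highest, 2 were higher and none lower (0.212% and 0.0393% of all symbols were), with a median log2 fold change of 1.44 against -0.13 over all symbols. FABP7, a radial glial fatty acid binding protein, rose by 2.47 ± 0.26 (adjusted p = 8.5e-06) and PTPRZ1, a phosphatase of radial glia and oligodendrocyte precursors, by 2.51 ± 0.39 (adjusted p = 0.00173, both edgeR). In the same contrast in human, none of 13 was called by edgeR or DESeq2, where edgeR called 0.00786% of all symbols. None had an unadjusted p under 0.05 by edgeR, where 3.55% of all symbols had one. The median was -0.36, against -0.15 over all symbols. With so few symbols called, the lack of a call does not show that the list was unchanged in human. The change of FABP7 differed between species by -2.69 ± 0.36 (adjusted p = 5.2e-04, edgeR), the only symbol called in that difference. Without the block on library, or with only the groups compared in the fit, no symbol was called in it. The mouse contrast had no called symbol under these alternatives either. With gates on unthinned counts, no symbol was called lower in the difference. SOX9, which acts with NFIA in glial specification, was lower in human than in mouse doubly positive progenitors (-1.72 ± 0.48, adjusted p = 0.0308) and lower in mouse OLIG2-free than OLIG2-only progenitors (-1.46 ± 0.26, adjusted p = 0.00279, both edgeR). In the other classes, 2 genes of the list were higher in human and 0 lower in OLIG2-only progenitors (median 0.31). Over all symbols, 15.2% were higher and 13.6% lower there. The list had 4 higher and 0 lower in OLIG2-free progenitors (median 1.40), where 16.6% and 14.5% of all symbols were. It had 3 higher and 2 lower in neurons (median 0.86), where 12% and 13.5% of all symbols were. FABP7 was higher in human in all 3, by 2.82 ± 0.87, 2.55 ± 0.86 and 5.26 ± 0.98. Without cells with markers of other tissues, 3 of 12 were higher and 0 lower in OLIG2-free progenitors. Over all symbols, 15.6% were then higher and 14% lower.

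The early progenitor list, in part genes of the let-7 and LIN28 system that fall with developmental age, had all 10 members tested. In OLIG2-only progenitors, 1 of them, HMGA1, was higher in human (3.40 ± 1.14, adjusted p = 0.0350, edgeR) and the other 9 did not pass. Over all symbols, 15.2% were higher and 13.6% lower there, so the list was not above the background. In neurons against OLIG2-only progenitors, 8 were lower in human and 7 in mouse, with none higher, where 23% and 24.7% of all symbols were lower. HMGA2 had the largest change in both (-2.91 ± 0.25 and -4.54 ± 0.29). Of the temporal neuron factors, 10 of 11 were tested. In neurons, 6 were higher and 1 lower in human, and 7 were higher and none lower in mouse, beside the rise of ZBTB20, where 18.1% and 22.9% of all symbols were higher. ONECUT3 rose by 7.67 ± 0.63 and 6.27 ± 0.69 in human and mouse. ONECUT2, like it a factor of early-born neurons, rose by 4.63 ± 0.38 in human and 5.75 ± 0.41 in mouse. ZFHX3, a factor of later-born neurons, rose in mouse (1.29 ± 0.19) and its change differed between species (-1.70 ± 0.28, adjusted p = 9.3e-05, edgeR).

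Across the 20 summed profiles (4 library parts by 5 classes), the patterns of the members were set beside each other by Pearson correlation of log2(CPM + 10). The profiles share libraries and depth, so the values describe and carry no p. NFIB and NFIX had r = 0.83, NFIA and NFIB 0.73, NFIA and NFIX 0.70 and NFIA and ZBTB20 0.65. NFIC and TGFB2 had r = 0.28 and 0.10 with NFIA. The genes most like NFIA were EPHA3 (0.93), BCL11A (0.90), MARCKS (0.88), IFFO2 (0.88) and TRPS1 (0.87). Those most like NFIB were LEKR1 (0.94), ACOT1 (0.93), ADAMTSL1 (0.93), LY96 (0.93) and DDC (0.92). For ZBTB20 they were CACNG4 (0.92), DENND6B (0.92), SMIM14 (0.90), SMAP2 (0.89) and CIC (0.89). ACOT1, a cytosolic thioesterase, had at most 4 UMIs in any human class and 459 in mouse replicate 2 OLIG2-only progenitors, and LY96 had none in any human class, so the NFIB neighbours hold genes that were near 0 in human throughout.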

How the data were processed

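Per the labels, cells were profiled with 10x 3′ chemistry, and the submitters' processing notes name Cell Ranger 3.1.0 with builds hg38 and mm10. The deposited values were raw UMI counts per gene and cell, which the authors had split by species for the mixed library. No source used here gives the annotation. The files held 32739 and 56832 gene entries for human replicates 1 and 2 and 27999 and 54087 for mouse replicates 1 and 2, and what that difference does to the members was not tested. Depth was 28577630, 32803173, 38166382 and 83969715 UMIs over 2407, 2044, 1881 and 2783 cells. Cells needed 1000 UMIs, 500 genes and at most 10% mitochondrial UMIs, which removed 15, 215, 5 and 77. Scrublet in scanpy 1.11.5 removed 13, 24, 5 and 32 doublets, and 60 barcodes found in both parts of the mixed library were left out of both. Other pairs of library parts shared 0 to 2 barcodes. Cells under 7000 UMIs (394, 344, 67 and 153) were left out, which left 1927, 1461, 1744 and 2521.

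Levels are full counts summed over the cells of a class in a library part, as CPM (scaled to the profile's total UMIs), and were not divided by transcript length. Tests used edgeR 4.0.16 (quasi-likelihood, TMM scaling, symbols with at least 20 UMIs in all, Benjamini-Hochberg over 12726 symbols, threshold 0.05) on 20 profiles in 1 fit. Class comparisons had the library part as a block and species comparisons had none. Classes of 1 library are not independent and each species had 2 library parts, so species p-values measure the spread between these libraries only and overstate the replication. The code was tested on simulated data. The members, the gene lists and the alternatives, which the closing section describes, were chosen with earlier results of these data known. All members are named. From each list and comparison, genes past the threshold may be named, where more than 4 pass the 4 with the largest change. For likeness the 5 highest correlations are named. Whether the same-numbered libraries pair was checked by the correlation of their deviations from the species means, which was 0.116 to 0.358 over the 5 classes. Only the number 1 marks a shared library and there are 2 pairs, so the numbers were not taken to pair the samples.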

Additional observations from a re-analysis of the deposited data

Results flagged for a closer look

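The change of NFIB from OLIG2-only progenitors to neurons differed between the species by a tested interaction. The human change minus the mouse change was 3.52 on the log2 scale (adjusted p = 0.00357, edgeR's quasi-likelihood test with Benjamini-Hochberg adjustment). The level went from 1.34 to 0.332 CPM in human replicate 1, from 1.82 to 5.54 CPM in human replicate 2, from 9.05 to 2.29 CPM in mouse replicate 1 and from 31.1 to 4.28 CPM in mouse replicate 2. Without human replicate 2 the difference was 0.68, and the DESeq2 Wald test gave 2.83 (adjusted p = 0.127). With only the groups compared in the fit, no symbol was called in this difference, so the NFIB call was lost there too. Without the block on library, 51 symbols were called in it, against 1814 with the block.

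A transcript annotated antisense to ZBTB20 also had UMIs that no comparison used. ZBTB20-AS2 had 8 UMIs in human replicate 1, above the 3 that a count of 0 allows, while ZBTB20-AS1 had 1 and ZBTB20-AS3 and ZBTB20-AS4 had 0. The ZBTB20 counts of the same library came to 331 UMIs over the cells used. Human replicate 2 had no gene entry for a ZBTB20 antisense transcript, so the count has no second human library beside it. Whether strand was used in the counting was not given in the sources used here. Whether reads of the gene were counted to its antisense transcript, or the reverse, was not tested.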

How the results depend on the processing

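Over all alternatives, 845 of 911 recomputed member results kept their side of the threshold, 20 lost the call and 46 gained it, and no called member changed direction. Most member results were not called to begin with, and one that stayed uncalled counts as kept. The 845 therefore do not measure how stable the calls were. Each member result called in the main fit lost its call under some alternative. NFIX and the NKX2-2-only and doubly positive classes rest on few UMIs and few cells.

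With the replicate block (the replicate number as a term), species calls numbered 5711 in OLIG2-only, 2522 in doubly positive and 5984 in OLIG2-free progenitors and 5131 in neurons, against 3669, 1475, 3951 and 3246. With no replicate block, calls between neurons and OLIG2-only progenitors fell from 5229 to 1660 in human, from 6065 to 2191 in mouse and from 1814 to 51 for their difference. The calls of doubly positive against OLIG2-only progenitors then fell from 1 (human), 32 (mouse) and 1 (difference) to 0 each. Those of OLIG2-free against OLIG2-only progenitors fell from 249 in human to 0 and from 117 in mouse to 1. The cause was not tested.

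With only the groups compared in the fit, species calls were 879 in doubly positive progenitors and 1682 in neurons. Calls between neurons and OLIG2-only progenitors were 998 (human), 1451 (mouse) and 0 (difference), and the other class comparisons had 0. Gates on unthinned counts gave 2563 species calls in doubly positive progenitors, and 539 in human and 71 in mouse for OLIG2-free against OLIG2-only progenitors. DESeq2 gave 37 and 24 there, and 21 in mouse and 2 for the difference in doubly positive against OLIG2-only progenitors. With no filter the latter were 3 (human), 88 (mouse) and 11 (difference), and OLIG2-free against OLIG2-only progenitors in mouse had 241. Stricter gates gave 2 in human for doubly positive against OLIG2-only progenitors. Leaving out off-target cells gave 2 in human and 3 for the difference there, and 44 in human for OLIG2-free progenitors. Leaving out the NKX2-2-only class, chosen after seeing the data, gave 0 in human and 7 in mouse for doubly positive and 136 and 55 for OLIG2-free progenitors.

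Without 1 library part, species calls ranged from 1829 to 2377 in OLIG2-only, 327 to 925 in doubly positive and 2028 to 2772 in OLIG2-free progenitors, and from 1466 to 2090 in neurons. Neurons against OLIG2-only progenitors had 2280 to 5763 calls (human), 3314 to 5581 (mouse) and 617 to 2047 (difference). Doubly positive against OLIG2-only progenitors had 1 to 6 (human), 2 to 140 (mouse) and 0 to 40 (difference), and OLIG2-free had 25 to 495 in human and 32 to 375 in mouse. Where an arm kept 1 library part, that part was assumed to vary like the others.

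Mean shares of cells changed sign, human minus mouse, in these cases, none of which a test had called. For ZBTB20 in OLIG2-only progenitors the difference moved from -0.749 to 0.0206 percentage points without off-target cells. In neurons it moved for NFIB from 0.0444 to -2.01 unthinned and -0.309 without off-target cells. For NFIC it moved from 0.187 to -3.01 and -0.829 under the same alternatives, and for TGFB2 from 0.873 to -1.15 unthinned.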
